A study of Mus musculus with 6 samples.

Results

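The genes described here make and sense prostanoids, lipid signals derived from arachidonic acid: the cyclooxygenases Ptgs1 and Ptgs2, the terminal synthases Ptges and Tbxas1, and the receptors Ptgir, Ptger1, Ptger2, Ptger3 and Ptger4. All probes that the array design names after one of these 9 genes were taken, of 34797 gene names in all, which gave 12 probes of 55681. Ptgs1 and Ptgir were picked because their signal was higher with miR-26a in these same arrays, so their miR-26a values are given as a description, with no test.

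RNA came from the mouse pre-B cell line 1676, which lacks the adaptor proteins SLP-65 and LAT (genotype SLP-65-/- LAT-/-). The cells were kept with the growth factor IL-7, transduced with retroviral vectors and selected with 1 µg/ml puromycin. They carried a control vector (2 arrays), a vector for miR-26a, labelled hsa-miR-26a-2 (2 arrays), or a miR-26 sponge, an mRNA whose concatemerized target sites bind and sequester the miR-26 family (2 arrays). The 2 arrays of a group stem from 2 experiments with independently generated clones, so experiment and clone cannot be told apart, and the control is a vector without insert rather than a scrambled sponge. The titles of the control arrays point to an earlier series, so their assignment to an experiment rests on the replicate number. If the controls stem from that series, series and vector cannot be told apart. Each array was a single-colour 60-base oligonucleotide array, and its intensities were quantile-normalized, which gives all 6 arrays the same distribution of values. Of 59305 spots on each array, 28823 to 29800 exceeded background clearly by the scanner software's flag (termed well above background). Saturated spots numbered 0. Replicates of a group correlated at 0.9957 to 0.9974 across tested probes. Of 10 pre-B cell markers, 9 passed the filter described below, among them Vpreb1 and Igll1 of the surrogate light chain. Limma called 0 of the 9 with miR-26a, beside 9.72% of all tested probes, and 0 with the sponge, beside 0.00992%. An unadjusted p under 0.05 by limma was found for 2 with miR-26a and for 0 with the sponge, the latter beside 16% of all tested probes.

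Cyclooxygenases turn arachidonic acid into the unstable intermediate prostaglandin H2. Terminal synthases convert this to prostaglandin E2 (Ptges), thromboxane A2 (Tbxas1) or prostacyclin, among others, and each product acts on G protein-coupled receptors at the cell surface. The receptors for prostacyclin (Ptgir) and the E2 receptors encoded by Ptger2 and Ptger4 raise cAMP, that of Ptger3 lowers it, and that of Ptger1 signals mainly through calcium. Ptgs1 is known as the constitutive cyclooxygenase and Ptgs2 as the inducible one.

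The mature miRNAs are shown because the vectors raise or sequester this family. The overexpressed miR-26a and its relative miR-26b share the seed, bases 2 to 8, given in capitals. The mouse sequences are from RefSeq, build GRCm38.p6: miR-26a-5p at chr9:119031811-119031832 and chr10:126995543-126995564, and miR-26b-5p at chr1:74394324-74394344, all on the plus strand.
mmu-miR-26a-5p: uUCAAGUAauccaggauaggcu
mmu-miR-26b-5p: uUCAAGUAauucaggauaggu
The DNA words that pair with this seed, TACTTGA (bases 2 to 8) and ACTTGAA (bases 2 to 7, with an A opposite base 1), occurred in 0 of the 12 member probes, against 0.431% and 0.7% of all probes searched on the probe's own strand. These words were searched in the probes alone and not in the whole transcripts.

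The regions upstream of Ptgs1 and Ptgir are shown because these are the members whose signals were higher with miR-26a. Each run gives the 250 bases before the start of the gene in RefSeq, build GRCm38.p6, on the coding strand, which is the plus strand for both: chr2:36230176-36230425 for Ptgs1 and chr7:16906240-16906489 for Ptgir.
Ptgs1: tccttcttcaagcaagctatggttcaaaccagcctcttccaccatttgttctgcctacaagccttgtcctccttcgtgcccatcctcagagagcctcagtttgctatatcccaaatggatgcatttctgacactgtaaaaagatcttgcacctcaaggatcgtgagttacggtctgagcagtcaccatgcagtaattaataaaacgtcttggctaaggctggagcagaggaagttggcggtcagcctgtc
Ptgir: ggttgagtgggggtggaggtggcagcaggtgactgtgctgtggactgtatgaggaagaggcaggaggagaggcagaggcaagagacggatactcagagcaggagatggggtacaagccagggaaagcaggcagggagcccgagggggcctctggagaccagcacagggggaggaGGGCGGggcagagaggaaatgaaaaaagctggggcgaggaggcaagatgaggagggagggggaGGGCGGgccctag
Capitals mark the GC box GGGCGG, which occurred 2 times for Ptgir and 0 times for Ptgs1, and in 32.7% of 32851 promoters of this length. The CRE half-site TGACG (17.8% of promoters), the E-box CACGTG (6.02%) and the TATA box TATAAA (12.4%) had no match in either window. Both strands were searched, and no match overlapped another. The Ptgir window had 63.6% G and C and that of Ptgs1 48.0%, with a median of 52.4% over all promoters.

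Of the 12 member probes, 4 passed the filter on low values: those of Ptgs1, Ptgir and Ptger4 and 1 of the 2 probes of Ptges. The filter asked for the background flag on 1 array or more and for a processed signal over 50 on 4 or more of the 6. All 4 probes carried the flag on every array. The other 8 probes were well above background on some arrays (3 probes) or on none (5 probes), and none had a processed signal over 50 on any array; they are given with no fold and no test. With miR-26a, 9.72% of the 20168 probes tested had an adjusted p under 0.05, and no call is given for the member probes, since Ptgs1 and Ptgir were picked on this comparison. With the sponge, limma called 0 of the 4, beside 0.00992% of all tested probes, and 1 of the 4 (Ptgir) had an unadjusted p under 0.05, beside 16% of all. The sponge comparison uses the same control arrays as that with miR-26a, so for Ptgs1 and Ptgir it is not independent of their choice.

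Ptgs1 signal was higher with miR-26a in both experiments, and with the sponge it lay within the error of the controls. Its probe (A_51_P279100, mm9 chr2:36107644-36107703, plus strand) read quantile-normalized signals of 69.7 and 54.4 in the control arrays, 223 and 186 in the miR-26a arrays, and 68.5 and 60.8 in the sponge arrays. Both miR-26a arrays lay above the other 4, and the sponge values lay within the control range. The log2 change with miR-26a was 1.72 (SE 0.08, n = 2 experiments), a 3.3-fold higher signal, with 1.68 in experiment 1 and 1.77 in experiment 2. It was the highest of all 20168 probes tested, a rank that partly restates the choice of this gene, and 0.119% had a larger fall. With normexp background correction the change was 1.1.

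With the sponge, the Ptgs1 log2 change was 0.07 (95% CI -0.12 to 0.26, adjusted p = 0.682 by limma). The interval corresponds to a signal between 0.919 and 1.2 times the control. The values were -0.02 in experiment 1 and 0.16 in experiment 2.

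**Figure D1:**
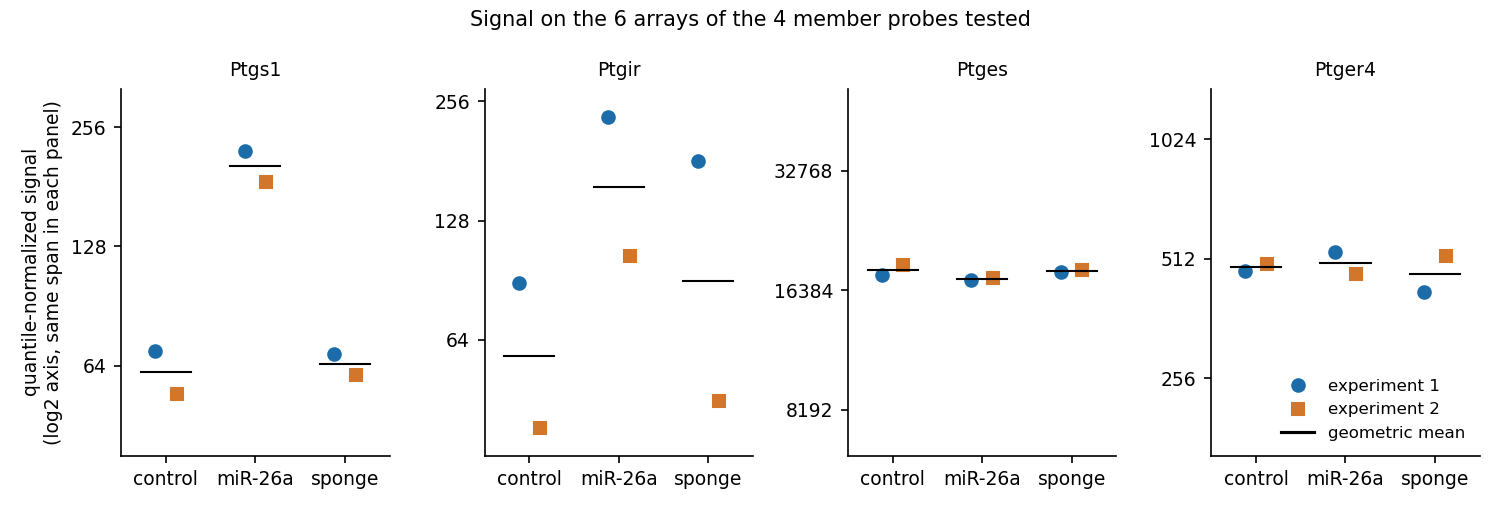
Quantile-normalized signal (log2 axis, the same span in each panel) of the 4 tested member probes in the control, miR-26a and sponge arrays; points are single arrays and bars geometric means of 2. The miR-26a arrays of Ptgs1 read 223 and 186, above the other 4 arrays, whereas Ptgir separated the experiments within each group.

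The inducible cyclooxygenase Ptgs2 was not well above background on any array. Its probe (A_51_P254855, mm9 chr1:151954744-151954803, plus strand) was printed as 10 spots, and their mean gave signals between 2.65 and 2.78 on the 6 arrays. The level of Ptgs2 therefore has only an upper bound in each group, and no fold is given.

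Ptges, the microsomal synthase that makes prostaglandin E2 from the cyclooxygenase product, differed little between the groups. The tested probe (A_55_P1974193, mm9 chr2:30744995-30745054, minus strand) read 17900 and 19000 in controls, 17400 and 17600 with miR-26a, and 18200 and 18400 with the sponge. The log2 change with miR-26a was -0.08 (SE 0.07), both miR-26a arrays lying below the other 4. With the sponge the change was -0.01 (95% CI -0.18 to 0.15, adjusted p = 0.934 by limma), and the sponge arrays lay between the 2 controls.

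The second Ptges probe lies 3219 bases upstream in the same transcript and was not well above background on any array, with signals from 5.67 to 14.7. It is shown because the 2 probes of this gene disagree on whether it is detected. The run is the probe's 60 bases on the minus strand at mm9 chr2:30748214-30748273, of which 55.0% are G or C, whereas the tested probe has 36.7%.
A_55_P1974189: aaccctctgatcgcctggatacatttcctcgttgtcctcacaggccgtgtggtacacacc
The part of position and base composition in this disagreement was not tested.

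Tbxas1, the synthase of the platelet product thromboxane A2, has 2 probes. The first (A_55_P2175571) was not well above background on any array, with signals from 2.77 to 5.81. The second (A_51_P448664) was well above background on the miR-26a array of experiment 1 alone, at 15.1, with 2.88 to 6.26 on the other 5 arrays. The second miR-26a array lay inside that lower range, and no fold between groups could be given.

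Ptgir, the prostacyclin receptor, was higher with miR-26a in both experiments but also differed between the experiments themselves, by a similar fold. Its probe (A_55_P1994309, mm9 chr7:17496120-17496179, plus strand) read 88.9 and 38.4 in controls, 234 and 104 with miR-26a, and 181 and 44.8 with the sponge. Both miR-26a arrays lay above both controls. The sponge group overlapped the other 2: its first array (181) exceeded the second miR-26a array (104), and the first control (88.9) exceeded its second array (44.8). Within the experiments the order was the same in both, lowest in the control and highest with miR-26a.

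The log2 change of Ptgir with miR-26a was 1.41 (SE 0.21, n = 2 experiments), a 2.66-fold higher signal. It was 2.63-fold in experiment 1 and 2.7-fold in experiment 2, and ranked 6 from the top among the tested probes. That rank also partly restates the choice of the gene. The probe passed the filter through 4 arrays, the 2 with miR-26a and the first of each other group.

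With the sponge, Ptgir signal was 1.54-fold that of controls (log2 0.62, 95% CI 0.09 to 1.15, adjusted p = 0.272 by limma). The unadjusted p was 0.0283, and the change was 2.04-fold in experiment 1 and 1.17-fold in experiment 2. Leaving out the first sponge array gave a log2 change of 0.21 and leaving out the second gave 1.04. Ptgir was picked against these same controls, so its sponge change, interval and p-values are not independent of that choice.

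**Figure D2:**
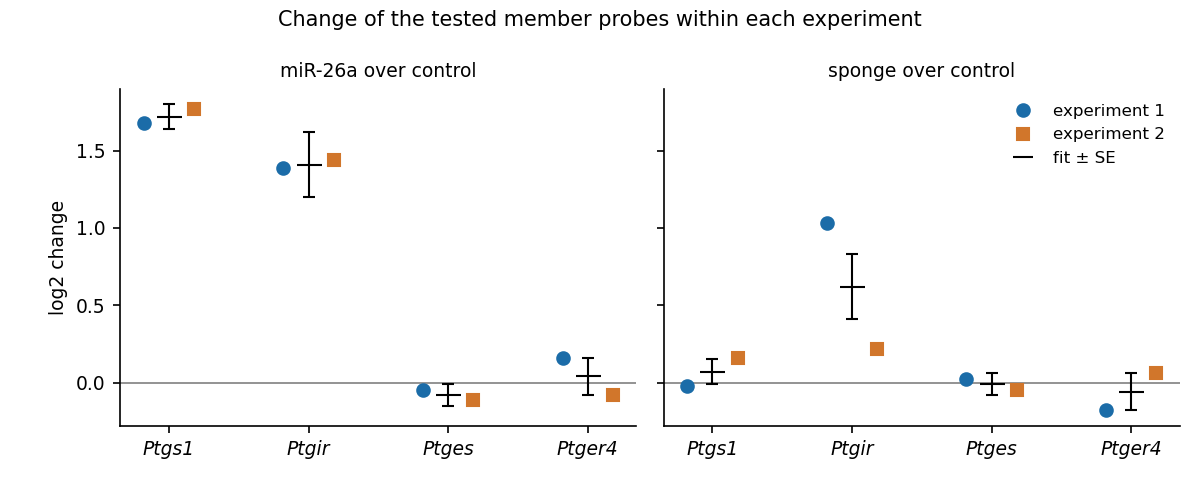
Log2 change of the 4 tested member probes over the control of the same experiment (points) and the fitted change with its SE (bars), for miR-26a and the sponge. The experiments lie close together for Ptgs1 (1.68 and 1.77 with miR-26a), and apart for Ptgir with the sponge (1.03 and 0.22).

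The difference between experiments was then fitted for the members, a comparison chosen after the values were seen, so its p-values are a description. Ptgir was lower in experiment 2 in all 3 groups, with signals in experiment 1 higher by 2.32-fold in controls, 2.25-fold with miR-26a and 4.05-fold with the sponge. The fitted log2 difference, experiment 2 minus experiment 1, was -1.47 (SE 0.17, 95% CI -1.9 to -1.03, adjusted p = 0.0368 by limma). With no filter on dim probes the adjusted p was 0.446 by limma. The probe had passed that filter through all arrays of experiment 1 and the second miR-26a array. Of the 4 tested member probes, 1 (Ptgir) was called between experiments, beside 3.35% of all tested probes, and 0.00496% of all probes had a difference of larger size. The call was lost without either control array (adjusted p = 0.065, log2 difference -1.59) and without either sponge array (adjusted p = 0.206, log2 difference -1.19).

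The Ptgs1 difference did not pass (log2 -0.26, adjusted p = 0.076 by limma). For Ptger4 and Ptges the differences were 0.06 and 0.04. What differed between the experiments, including the clone, was not tested.

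Among the receptors for prostaglandin E2, Ptger4 was the one tested. Its probe (A_51_P207988, mm9 chr15:5184419-5184478, minus strand) read 477 and 498 in controls, 532 and 470 with miR-26a, and 421 and 520 with the sponge, so the 3 groups overlapped. The log2 change with miR-26a was 0.04 (SE 0.12), with 0.16 in experiment 1 and -0.08 in experiment 2. With the sponge it was -0.06 (95% CI -0.36 to 0.24, adjusted p = 0.834 by limma).

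Signals of Ptger1 and Ptger2 were near background. Ptger1 (A_55_P1995473) read 18 and 12.5 in controls, 18.8 and 20.1 with miR-26a, and 15.3 and 10.1 with the sponge, and was well above background on 4 arrays, all but the second control and the second sponge array. Ptger2 (A_51_P249215) read 21.2 and 17.5 in controls, 16.8 and 12.9 with miR-26a, and 20.6 and 14.2 with the sponge, and was well above background on 5 arrays, all but the second miR-26a array. For Ptger1 both miR-26a arrays were the highest. For Ptger2 both miR-26a arrays lay below both controls, and the sponge group overlapped the other 2.
Both probes of Ptger3, the cAMP-lowering receptor, were not well above background on any array (2.8 to 2.94 for A_55_P1975481 and 2.74 to 10.8 for A_51_P520718).

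**Figure D3:**
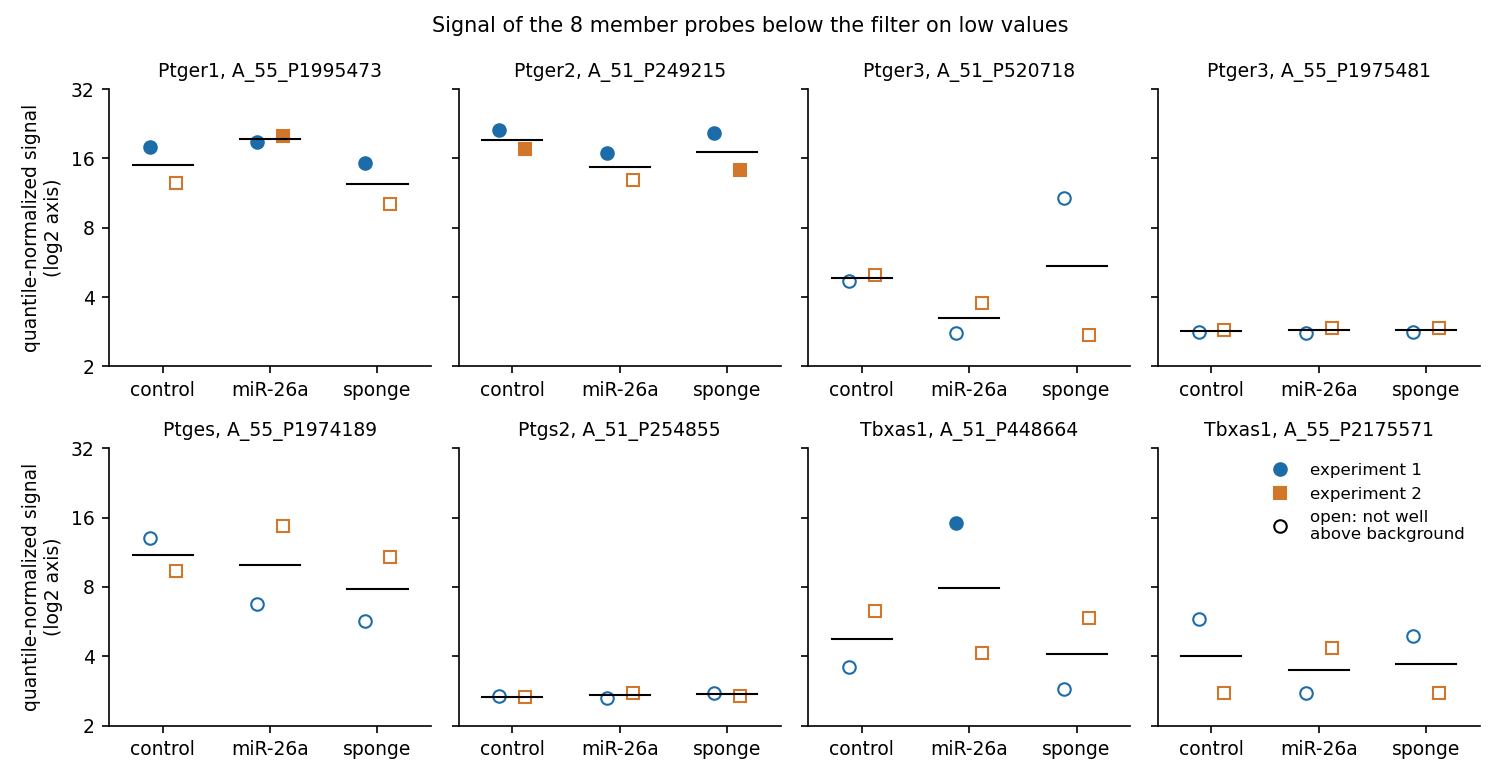
Quantile-normalized signal (log2 axis) of the 8 member probes below the filter, by group; filled points were well above background, open points were not, and bars are geometric means of 2 arrays. Ptgs2 and both Ptger3 probes have open points throughout, and Ptger1 and Ptger2 lie between 10.1 and 21.2.

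The surrounding pathway was described with 54 further genes, of which 32 had a tested probe, the brightest tested one being used where a gene has several. These genes were chosen with earlier results of these data known. Their counts and adjusted p-values are therefore a description, and no list was tested. With miR-26a, 4 rose, 6 fell and 22 did not pass (adjusted p under 0.05 by limma), beside 4.6% of all tested probes called higher and 5.12% called lower, and the median log2 change was -0.04 against 0.012 over all probes. With the sponge, limma called 0 of the 32, beside 0.00992% of all tested probes. An unadjusted p under 0.05 by limma was found for 6 of the 32, beside 16% of all tested probes. The median log2 change with the sponge was -0.01 against 0.008 over all probes. Both comparisons use the same control arrays.

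Of 5 tested genes that release or activate arachidonate, Pla2g4a rose with miR-26a, and 4 did not pass. Pla2g4a encodes the cytosolic phospholipase A2 that frees arachidonic acid from membranes. It read 821 and 753 in controls, 1070 and 956 with miR-26a, and 881 and 735 with the sponge, a log2 change of 0.36 with miR-26a (SE 0.07, adjusted p = 0.0376 by limma). Acsl4, which couples arachidonate to coenzyme A, had a log2 change of -0.18 (adjusted p = 0.18).

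Of 4 other tested synthases, Ptges2, a membrane-associated prostaglandin E synthase, rose with miR-26a. It read 1450 and 1280 in controls, 1880 and 1650 with miR-26a, and 1330 and 1310 with the sponge (log2 0.37 with miR-26a, SE 0.08, adjusted p = 0.043 by limma). The cytosolic synthase and Hsp90 co-chaperone Ptges3 did not pass (log2 0.17, adjusted p = 0.212). The prostacyclin synthase Ptgis, which makes the ligand of Ptgir, was not tested: it was well above background on 5 arrays, at 24.5 and 22.5 in controls, 15.5 and 19.9 with miR-26a, and 9.4 and 15.0 with the sponge.

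The thromboxane receptor Tbxa2r fell with miR-26a and was the only tested one of 4 other prostanoid receptors. It read 232 and 217 in controls, 124 and 104 with miR-26a, and 257 and 215 with the sponge, so that both miR-26a arrays lay below the other 4. The log2 change was -0.98 with miR-26a (SE 0.08, adjusted p = 0.005 by limma) and 0.07 with the sponge (adjusted p = 0.67). Probes of the D2 receptors Ptgdr and Ptgdr2 and of the F2alpha receptor Ptgfr were not well above background on any array.

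Among 3 tested genes of transport and breakdown, Ptgr1, a reductase that inactivates prostaglandin metabolites and leukotriene B4, fell with miR-26a. It read 18300 and 17800 in controls, 13500 and 12300 with miR-26a, and 20100 and 19000 with the sponge (log2 -0.49 with miR-26a, SE 0.07, adjusted p = 0.0155 by limma). The exporter Abcc4 had the lowest unadjusted p of this list with the sponge (0.00309, log2 0.41), without passing (adjusted p = 0.22).

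In the leukotriene branch, where arachidonate goes to 5-lipoxygenase instead of cyclooxygenase, 1 of 3 tested genes was called. Alox5ap, which presents arachidonate to that enzyme, read 191 and 148 in controls, 91.9 and 63.1 with miR-26a, and 221 and 213 with the sponge. The miR-26a arrays were the lowest and the sponge arrays the highest, with log2 changes of -1.14 (SE 0.12, adjusted p = 0.00879 by limma) and 0.37 (adjusted p = 0.268). With normexp background correction the miR-26a change was -0.73. The lipoxygenase gene itself, Alox5, was not well above background on any array. Lta4h, the leukotriene A4 hydrolase, did not pass with miR-26a (log2 0.11, adjusted p = 0.52) or with the sponge (0.31, adjusted p = 0.25). Ltc4s was lower in both comparisons without passing, by log2 -0.28 with miR-26a (adjusted p = 0.0945) and -0.47 with the sponge (adjusted p = 0.206). All 3 tested genes had an unadjusted p under 0.05 by limma with the sponge, beside 16% of all tested probes. Alox5ap and Lta4h lay upwards and Ltc4s downwards, and limma called 0 of the 3.

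Of 16 tested genes of cAMP signalling, the route by which Ptgir, Ptger2 and Ptger4 act, 2 rose and 3 fell with miR-26a. Prkar2a, a regulatory subunit of protein kinase A, read 150 and 101 in controls, 342 and 249 with miR-26a, and 137 and 87.1 with the sponge (log2 1.24 with miR-26a, SE 0.08, adjusted p = 0.00331 by limma). Of the phosphodiesterases, which degrade cAMP, Pde3b rose (log2 0.42, adjusted p = 0.0231), and Pde4a (log2 -0.66, adjusted p = 0.00998), Pde4b (-0.46, adjusted p = 0.0427) and Pde7a (-0.33, adjusted p = 0.0453) fell. With normexp background correction the Pde4a change was -0.32 (adjusted p = 0.0246), and with 75th percentile scaling Pde7a no longer passed (-0.28, adjusted p = 0.0753).
The G protein alpha subunit gene Gnas, which couples these receptors to adenylyl cyclase, had a log2 change of 0.05 (adjusted p = 0.822). Second tested probes of Pde4b and Pde7a had log2 changes of -0.32 and -0.28 that did not pass (adjusted p = 0.08 and 0.0921), and a second Prkar2a probe was not well above background on any array.

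Leaving out single arrays kept the direction of all 10 called genes but lost calls each time. Pla2g4a, Ptges2, Pde3b and Pde7a lost theirs whichever of the 6 arrays was left out, with log2 changes of 0.32 to 0.41, 0.33 to 0.41, 0.39 to 0.45 and -0.37 to -0.28. Prkar2a (1.17 to 1.32) and Tbxa2r (-1.06 to -0.9) were called whichever array was left out, and they were the 2 calls left without either control array. Without the first miR-26a array 5 were left (Alox5ap, Pde4a, Ptgr1, Prkar2a and Tbxa2r), and without the second 4, Ptgr1 being lost as well. Without either sponge array 6 were left, those 5 and Pde4b.

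**Figure D4:**
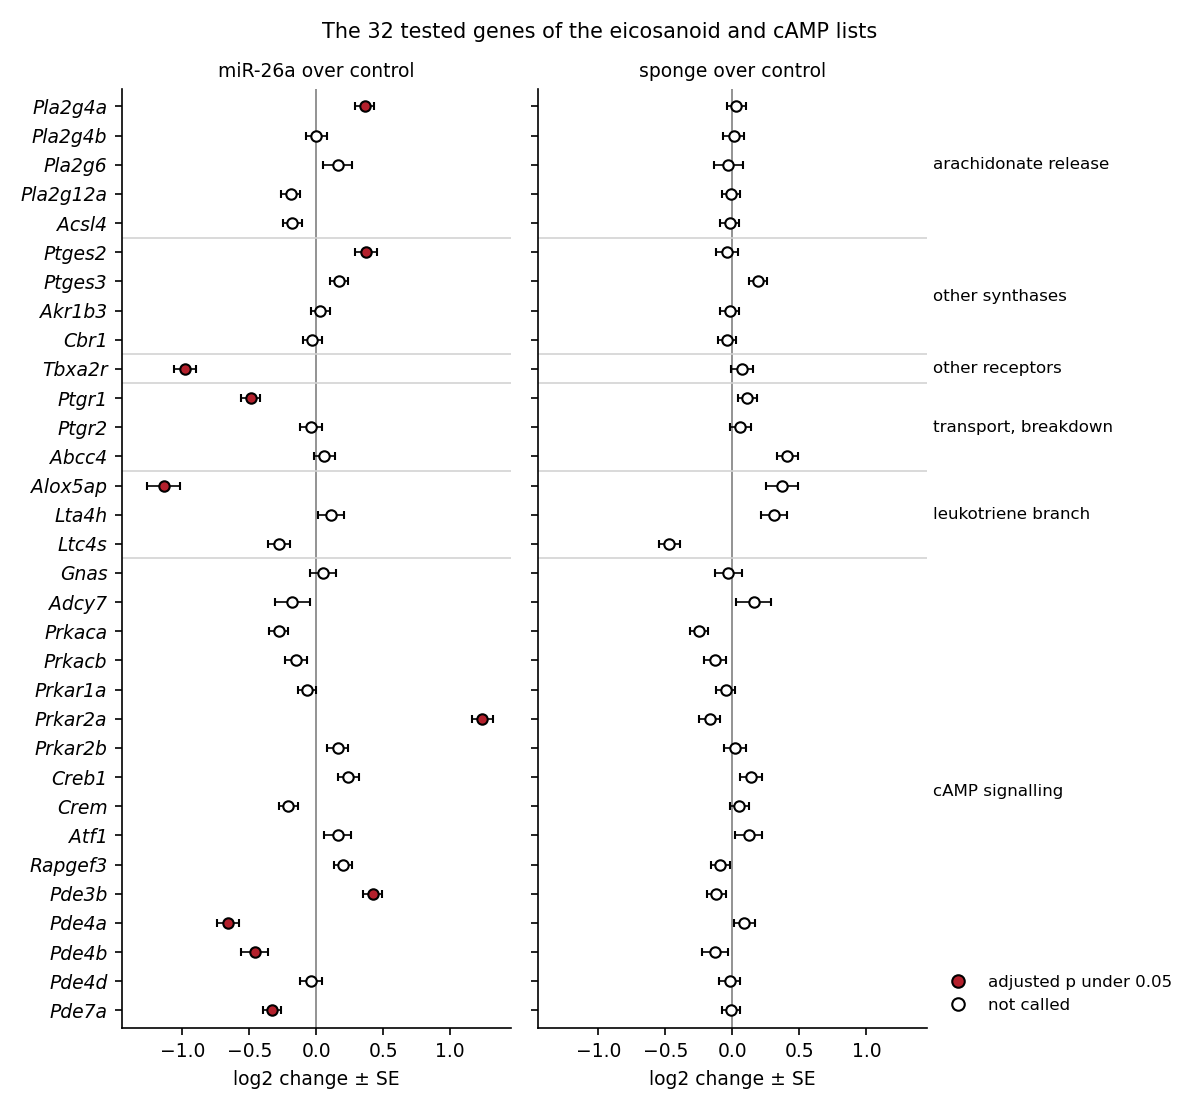
Fitted log2 change with its SE for the 32 tested pathway genes, grouped by list from top to bottom, with miR-26a (left) and the sponge (right) over control; filled points had an adjusted p under 0.05. With miR-26a 4 genes lie filled to the right of 0 and 6 to the left, the farthest being Prkar2a at 1.24 and Alox5ap at -1.14, and no point is filled with the sponge.

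Probes with profiles most like those of Ptgs1 and Ptgir were found among 18686 annotated tested probes by the root mean square difference between log2 profiles over the 6 arrays, each centred on its mean; this is a description. For Ptgs1 they were the non-coding RNA A130040M12Rik (0.191), the zinc finger gene Zfp579 (0.205), the annexin gene Anxa4 (0.237), the fetuin gene Fetub (0.244) and Prkar2a (0.255), which the cAMP list also holds. A130040M12Rik read 822 and 740 in controls, 2290 and 1700 with miR-26a, and 709 and 757 with the sponge. For Ptgir they were 2 probes of the neurofilament gene Nefh (0.275 and 0.297), the serpin gene Serpinb9c (0.316), the coagulation inhibitor gene Tfpi (0.322) and Abhd14a (0.357).
The brighter Nefh probe read 920 and 478 in controls, 2030 and 811 with miR-26a, and 1220 and 471 with the sponge. All 5 profiles shared with Ptgir a higher signal in experiment 1 in each group. These probes were chosen for likeness to the Ptgir profile, so this is no separate observation.

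**Figure D5:**
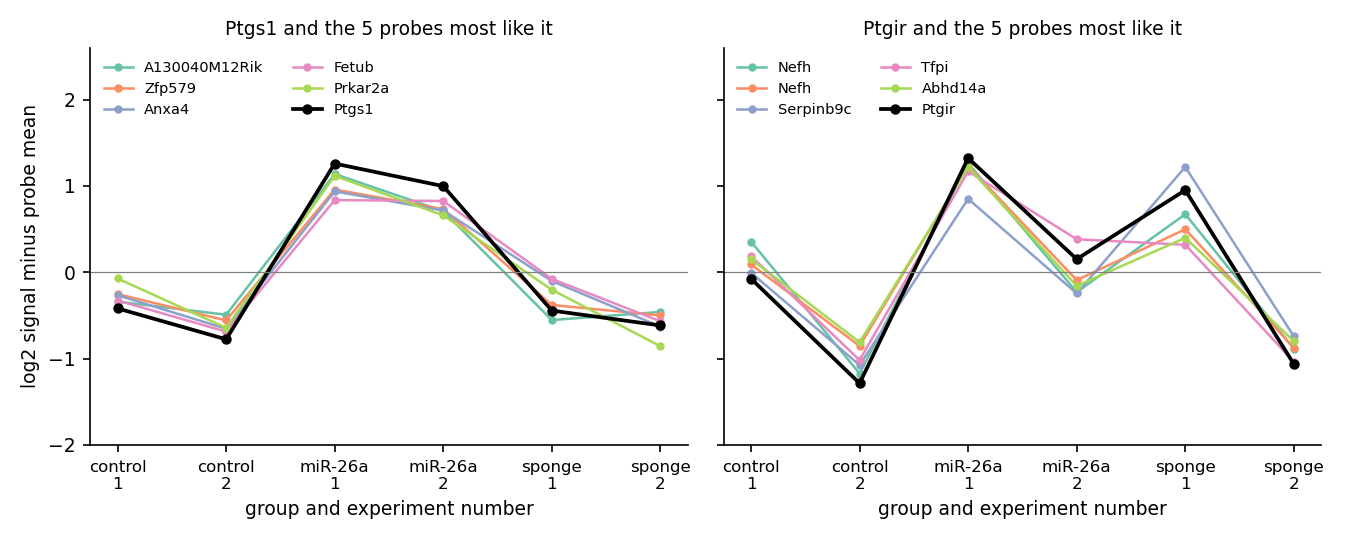
Log2 signal minus the probe's mean on each of the 6 arrays for Ptgs1 (left) and Ptgir (right), in black, and the 5 probes most like each, in colour. The Ptgs1 set is high on both miR-26a arrays, and the Ptgir set is higher in experiment 1 of every group.

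Prostanoid genes are also used by platelets and myeloid cells, so markers of other cell types were read on the same arrays. Of 7 megakaryocyte and platelet markers, Pf4, Ppbp and Gp6 were not well above background on any array, and the summed signal of the list was 156 to 163 in controls, 171 to 235 with miR-26a and 146 to 154 with the sponge. Its tested gene, Gp9, read 87.3 and 76.9 in controls and 154 and 97.8 with miR-26a, and did not pass (log2 0.58, adjusted p = 0.111 by limma). The part of these cells in the higher Ptgs1 and Ptgir signals was not tested.
Of 11 macrophage and granulocyte markers, Itgam, Csf1r, Elane and Cd68 were tested and well above background on all 6 arrays. Adgre1 was well above background on 5, Lyz2, Mpo and S100a9 on 1 each, and Cd14, Fcgr1 and S100a8 on none. Cd68 rose with miR-26a (log2 0.33, adjusted p = 0.0398 by limma). The brightest Itgam probe did not pass (log2 0.06, adjusted p = 0.739), whereas its second tested probe fell (log2 -0.82, adjusted p = 0.00712 by limma), so the probes of this gene disagree. The summed signal of the list, with the brightest probe of each gene, was 3900 to 4980 in controls, 4270 to 5030 with miR-26a and 3360 to 4830 with the sponge. The part of myeloid cells in the member results was not tested. With none above background were 6 of 7 mast cell and 4 of 5 stromal markers. In RNA of whole cultures, fewer cells of a type and less RNA per cell cannot be told apart.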

How the data were processed

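The authors deposited scanner output of 6 Agilent arrays (design 028005, mm9 probe coordinates) with intensity values per spot, background-subtracted by Feature Extraction (10.7.1.1 in the submitters' processing notes, 10.7.3.1 in the file headers), and a table of quantile-normalized intensity values on a linear scale. That table was used as an alternative. Here control spots and outlier-flagged spots were left out (0 to 7 probes per array with all spots flagged kept their value), quantile normalization was applied to the processed signals, log2 was taken, spots were averaged per probe, and 20168 probes were tested with limma 3.58.1 in R 4.3.3 over all 6 arrays, with Benjamini-Hochberg adjustment over all of them.

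The replicate number of the labels was a block, since the methods normalize to the control of the same experiment. Deviations from group means of arrays with the same number correlated at 0.379 (control and miR-26a), 0.588 (control and sponge) and 0.454 (miR-26a and sponge). The titles of the control arrays point to an earlier series, so their pairing rests on that number. P-values and SEs measure the spread left among these arrays after group and experiment are fitted, not the full spread between cultures. For the miR-26a change of Ptgir the SE was 0.77 without the block and 0.21 with it. For Ptgs1 it was 0.16 and 0.08. The 2 arrays per group limit the precision.

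Members and lists were chosen with earlier results of these data known. Named were all member probes, called and brightest genes of the pathway lists, called genes of the marker lists, and the 5 probes with the most similar profile. Other genes of the lists were named after their values were seen (Abcc4, Ptgis, undetected receptors, Alox5, Ltc4s, Gp9 and the other markers). RefSeq sequences (GRCm38.p6) were matched by symbol, 8 of 9 promoters and both miRNAs. The build differs from that of the probes, so coordinates were not joined. The fit was tested on simulated data. Alternatives were no block, 75th percentile scaling, normexp background correction (offset 50), the authors' values, other filters, array weights, outlier spots kept and leaving out each array. Tables and plots used numpy 2.4.6, pandas 2.3.3 and matplotlib 3.10.9.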

Additional observations from a re-analysis of the deposited data

How the results depend on the processing

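The higher miR-26a signals of Ptgs1 and Ptgir kept their direction under all alternatives run: log2 changes were 1.65 to 1.79 and 1.19 to 1.64 when single arrays were left out, and with normexp background correction, whose offset compresses low signals, 1.1 and 0.93. Both genes were picked for this rise in the same arrays, so the kept direction is no separate observation. With the sponge no member and no pathway gene was called under any alternative. Sponge changes near 0 turned sign for Ptges (0.06 with 75th percentile scaling, 0.02 without the second control array) and Ptger4 (0.12 without the first sponge array). Without single arrays these sponge changes were -0.05 to 0.02 for Ptges and -0.24 to 0.12 for Ptger4. Ptger4 with miR-26a was -0.14 to 0.22 without single arrays. Without the replicate block, 312 probes and 1 pathway gene (Tbxa2r) were called with miR-26a, and the sponge change of Ptgir had an adjusted p of 0.865, with adjusted p-values of 0.149 to 0.83 without single arrays. With no filter on dim probes 0 probes and 0 pathway genes were called in either comparison, over 55681 probes, and the Ptgir difference between experiments had an adjusted p of 0.446. Leaving out single arrays gave 220 to 1559 probes and 2 to 6 pathway genes with miR-26a and 0 to 33 probes with the sponge, against 1960, 10 and 2 with all arrays. Sponge calls were 12 with 75th percentile scaling and 35 with normexp. Except as given, the causes were not tested. Between 29.55% and 33.61% of spots held the scanner's surrogate value. The 8 untested member probes had no processed signal over 50 on any array.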
